A study of Mus musculus with 12 samples.

Results

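Fgf8, Dlx5 and Dlx6 are genes of the apical ectodermal ridge, the strip of ectoderm along the distal edge of the limb bud. Their chromatin was described here from peaks of chromatin immunoprecipitation and sequencing (ChIP-seq) in mouse forelimb buds. The members are all called peaks that overlap either of 2 windows of the mm9 genome by at least 1 bp, 1 named for Fgf8 (chromosome 19, 45600000 to 46000000) and 1 named for Dlx5 with Dlx6 (chromosome 6, 6400000 to 7000000). They numbered 139 of 189536 peaks, 83 in the Fgf8 window and 56 in the Dlx5/Dlx6 window. The peaks come from 7 libraries. Distal forelimb at E11.5, of mixed C57BL/6 and CD1 background, was profiled in wild type for HOXA13, HOXD13, H3K27ac and H3K27me3. The same marks, H3K27ac and H3K27me3, were profiled in Hoxa13-/-;Hoxd13-/- embryos, called the double mutant here. In these mice a neomycin cassette interrupts the Hoxa13 coding region and a lacZ reporter sits in the first exon of Hoxd13. H3K27me3 was also profiled in CD1 mice at E10.5, with an antibody from another supplier and without a label restricting the forelimb bud to its distal part. Stage, strain, antibody and dissection therefore cannot be told apart in any comparison with E10.5. HOXA13 chromatin had an additional cross-linking step with DSG. Every list rests on 1 library, which leaves differences without replicate error or p-values.

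FGF8 is a secreted growth factor of the ridge that supports proliferation and survival of the mesenchyme beneath it. DLX5 and DLX6 are paralogous homeodomain transcription factors encoded by neighbouring genes. Loss of both disturbs the ridge and produces split foot defects of the hindlimb in mice. HOXA13 and HOXD13 pattern the digits from the distal mesenchyme. H3K27ac marks active promoters and enhancers, and H3K27me3 is laid down by Polycomb repressive complex over silent developmental genes, often as wide domains. The tissue is bulk, so a mark carried by few cells and a weak mark carried by many cannot be told apart, nor can both marks on the same chromosome and each mark in different cells.

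Scores are those the peak caller wrote, the authors' values for each peak, and are read here as p-values on a scale of -10 log10. They depend on depth and input and were compared within 1 list only, as percentiles of that list, where the percentile is the share of peaks with a lower score. Scores and percentiles from different lists are given side by side only, and a difference between them shows no change in signal. Many peaks share a score of 3100. Depth is unknown from the lists, whose lengths ran from 17556 to 38115 peaks, and the double-mutant H3K27ac list was longer than the wild-type list (38115 against 31933). Wild-type H3K27me3 had 9251 peaks on the X chromosome and the double mutant 385, so H3K27me3 shares are given over autosomes. No gene models of mm9 were used, so no peak was assigned to a promoter, exon or intron, and the tissue label was not checked against marker genes. On GRCm38, Fgf8 lies between Fbxw4 and Npm3, and Dlx6 and Dlx5 lie next to each other between Sem1 and Sdhaf3. Peaks of such neighbours can fall in the windows, and no peak is attributed to Fgf8, Dlx5 or Dlx6.

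Both windows held more H3K27me3 than autosomes in general, and its extent was similar in the 3 lists. In the Fgf8 window H3K27me3 peaks covered 52.0 kb (13%) in wild type, 44.2 kb (11.05%) in the double mutant and 48.1 kb (12.03%) at E10.5. In the Dlx5/Dlx6 window they covered 41.2 kb (6.87%), 39.8 kb (6.64%) and 38.4 kb (6.41%), in that order. The shares over all autosomes were 3.005%, 2.43% and 2.03%. H3K27ac covered 20.9 kb (5.21%) of the Fgf8 window in wild type and 27.4 kb (6.86%) in the double mutant. In the Dlx5/Dlx6 window it covered 21.0 kb (3.50%) and 18.2 kb (3.03%), against 2.37% and 2.96% of autosomes. The H3K27ac length was thus larger in the double mutant in the Fgf8 window, the same direction as over autosomes, and smaller in the Dlx5/Dlx6 window, in 1 library each.

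**Figure D1:**
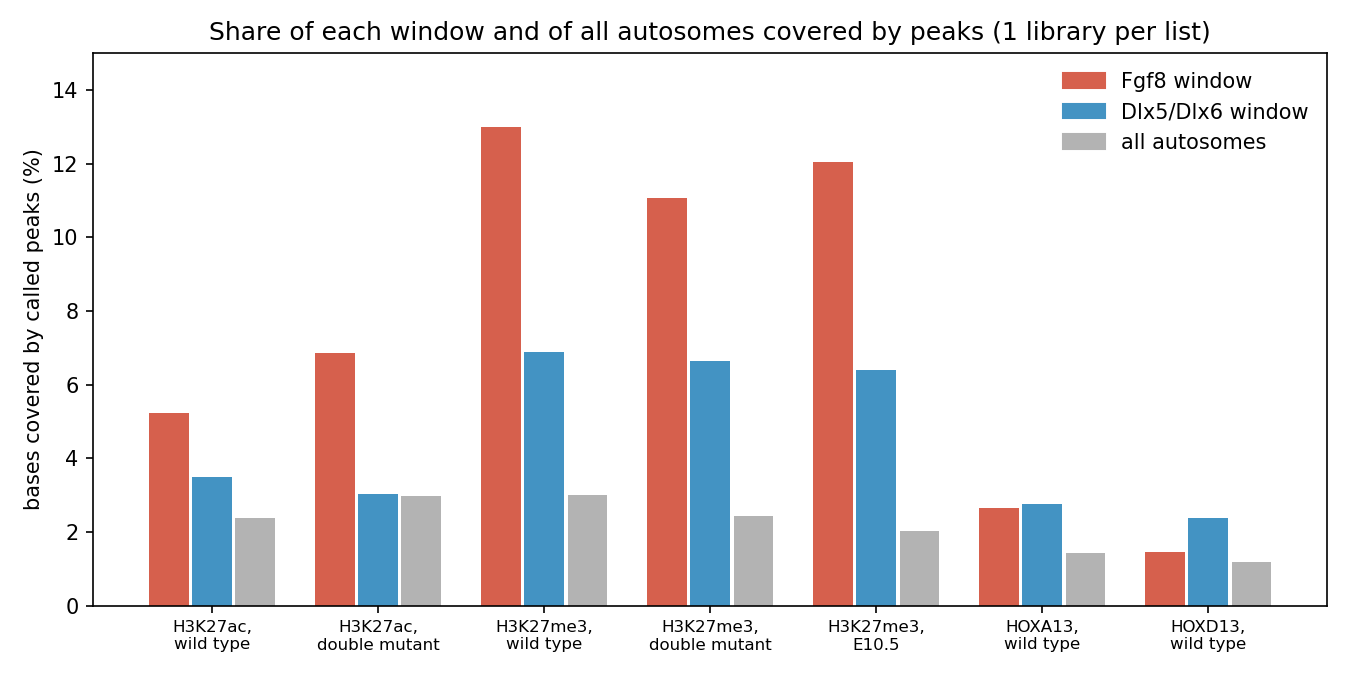
Bars give the percentage of bases covered by called peaks (y axis) in the Fgf8 window, the Dlx5/Dlx6 window and all autosomes, for each of the 7 lists (x axis); each list is 1 library and no error can be given. H3K27me3 covers 11.05 to 13% of the Fgf8 window and 6.41 to 6.87% of the Dlx5/Dlx6 window, against 2.03 to 3.005% of autosomes.

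The Fgf8 window contained a wide H3K27me3 domain that held no called H3K27ac in either genotype. In wild type this was 1 peak of 18639 bp, chr19:45803056-45821694, with a score of 3100, and it ranked 408 of 28875 by width. The double mutant had 1 peak of 18378 bp with a score of 3100 at the same place. Its start lay 24 bp inside the wild-type start and its end 237 bp inside the wild-type end. At E10.5 the stretch was divided into 3 peaks with scores of 221.04, 3100 and 2719.63, and the last end differed from the wild-type end by 6 bp. The first E10.5 peak began before the wild-type domain, at 45800954. Over the wild-type domain, double-mutant H3K27me3 covered 98.6% of bases and E10.5 H3K27me3 96.5%. Among all 1207 autosomal wild-type domains of at least 10 kb the medians were 94.6% and 84.4%, and 20.6% and 15.3% of domains were covered at least as much. Absence of H3K27ac was common among such domains, since 31.2% of them overlapped a wild-type and 41.9% a double-mutant H3K27ac peak.

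Acetylation flanked this domain closely on both sides. Towards higher coordinates, a wild-type H3K27ac peak at chr19:45822995-45824352 (score 815.31) began 1300 bp past the domain end, and its double-mutant counterpart (score 1020.33) lay at chr19:45822836-45824337. On the other side the wild-type peak chr19:45799821-45801033 (score 162.02) ended 2022 bp before the domain, and the double-mutant peak there had a score of 180.25. That flank overlapped the first E10.5 H3K27me3 peak but no wild-type H3K27me3 peak. The double mutant had an additional small H3K27me3 peak between the acetylated flank and the domain, chr19:45801533-45802936, with a score of 144.42. It had no wild-type partner, although only 119 bp separated it from the wild-type domain.

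**Figure D2:**
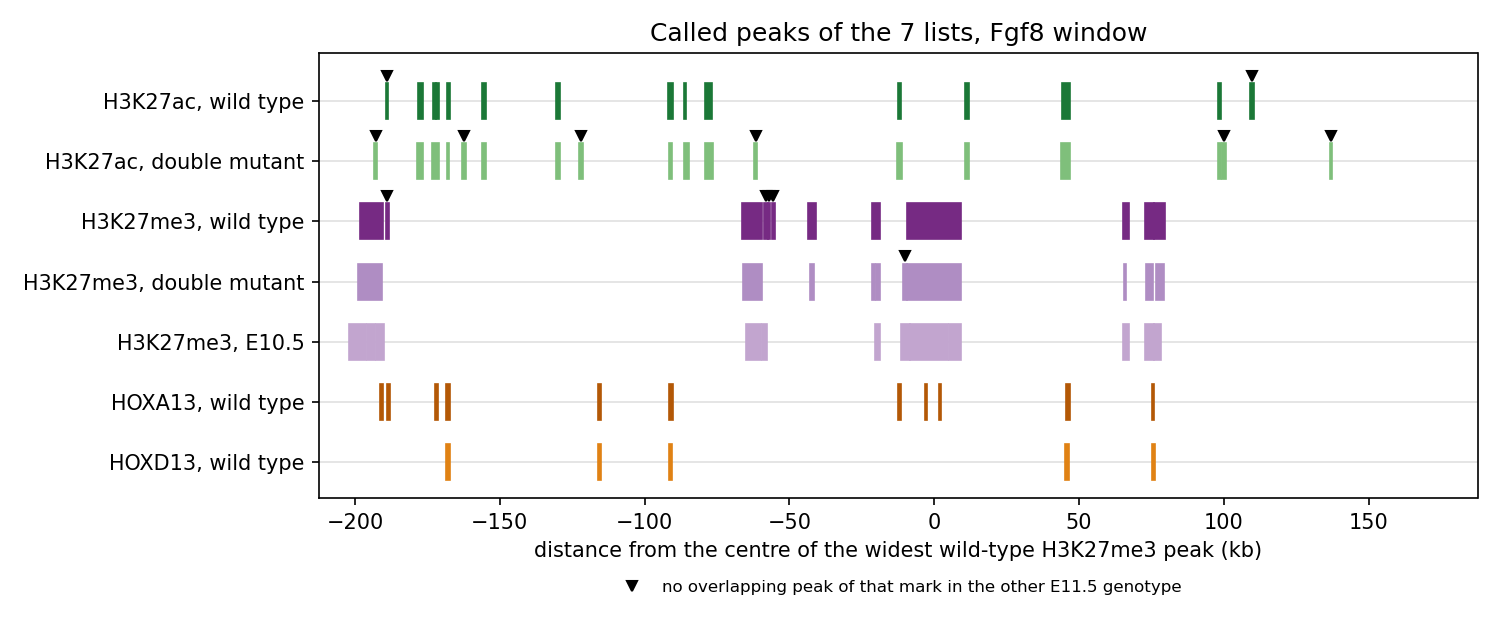
Called peaks of the 7 lists (rows) in the Fgf8 window, drawn to scale by distance in kb from the centre of the 18639 bp wild-type H3K27me3 peak; triangles mark histone peaks of E11.5 without an overlapping peak of that mark in the other genotype. The 18639 bp H3K27me3 domain has no H3K27ac within it in either genotype and has acetylated flanks.

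The other H3K27me3 peaks of the Fgf8 window formed 2 further blocks of high score and several minor ones. The block at chr19:45613916-45622143 (8228 bp) and the block at chr19:45746135-45752988 (6854 bp) had a score of 3100 in both E11.5 genotypes. At E10.5 the first was divided into 3 peaks with scores of 799.90, 1362.38 and 517.28, and the second scored 514.68. Among the 12 peaks of wild type, 4 were without a double-mutant partner (33.3%, Wilson 95% interval 13.8 to 60.9%), against 30.4% of autosomal wild-type peaks. Among the 10 of the double mutant, 1 lacked a wild-type partner, the small flanking peak described above (10%, 1.79 to 40.4%), against 15.8% of autosomal double-mutant peaks. The 4 wild-type peaks had scores of 125.10, 90.54, 52.28 and 70.73 and widths of 895 to 1415 bp. The first lay at chr19:45623050-45624023 and shared 691 bp with wild-type H3K27ac, the only bases of the window with both marks in wild type. The last 3 followed the second block within 3377 bp of a double-mutant peak, at chr19:45753456-45754870, chr19:45754874-45755768 and chr19:45756216-45757233. None of the 12 E10.5 peaks lacked a wild-type E11.5 peak (0%, 0 to 24.25%), against 13.6% of autosomal E10.5 peaks, and 1 lacked a double-mutant peak (8.33%, 1.49 to 35.4%), against 19.5%. Conversely 4 of 12 wild-type peaks (33.3%, 13.8 to 60.9%) and 1 of 10 double-mutant peaks (10%, 1.79 to 40.4%) had no E10.5 peak, against 50.2% and 46.5% of autosomal peaks. Of the 12 wild-type H3K27me3 peaks, 5 overlapped a HOX13 peak (41.7%, 19.3 to 68.0%), against 16.4%, and 1 overlapped wild-type H3K27ac (8.33%, 1.49 to 35.4%), against 22.8%. Their median width was 2688 bp, against 1926 bp over the whole list, and these shares were not matched for width. Among wild-type domains of at least 10 kb, 41.7% overlapped a HOXA13 peak.

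H3K27ac in the Fgf8 window was called at 15 places in wild type against 18 in the double mutant. The peaks of highest score were the same in both genotypes. They lay at chr19:45733377-45735552 and chr19:45856554-45859273 and had a score of 3100 in each list. The latter was also the widest H3K27ac peak of the window, at 2720 bp in wild type and 3108 bp in the double mutant. Wild-type scores ranged from 56.09 to 3100 with a median of 162, below the median of 342 over the whole list.

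Calls in 1 genotype only scored below the median of their whole list, and their number was near the genome-wide share. In wild type 2 of 15 peaks had no double-mutant peak (13.3%, 3.74 to 37.9%), against 15.1% of all wild-type H3K27ac peaks. They were chr19:45623027-45623740 (score 81.03), which overlapped a HOXA13 peak and a minor wild-type H3K27me3 peak, and chr19:45921461-45922905 (score 188.48), which overlapped neither factor. In the double mutant 6 of 18 peaks had no wild-type peak (33.3%, 16.3 to 56.25%), against 30.1% of all double-mutant H3K27ac peaks. Their scores ran from 56.05 to 150.74, the highest at chr19:45649274-45650796, followed by chr19:45689678-45691032 (136.35) and chr19:45911593-45913065 (131.83). The last of these began 30 bp past a wild-type peak and was no longer a call in 1 genotype when peaks within 1000 bp counted as overlapping. The others were chr19:45750166-45751172 (104.84), chr19:45619046-45619812 (70.10) and chr19:45949161-45949846 (56.05). The first and second of these 3 lay inside the blocks of H3K27me3 with a score of 3100 in both genotypes, and they were the only double-mutant H3K27ac peaks of the window to overlap double-mutant H3K27me3. None of the 6 overlapped a HOXA13 or HOXD13 peak. The 5 double-mutant H3K27ac peaks of the window on a HOX13 peak (27.8% of 18, 12.5 to 50.9%, against 29.1% of the list) all had a wild-type partner, while 13.3% of all such peaks had none. In wild type 7 of 15 were on a HOX13 peak (46.7%, 24.8 to 69.9%, against 37.8% of the list), and 1 of these 7 had no double-mutant partner (14.3%, 2.57 to 51.3%, against 21.3%).

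HOX13 binding in the Fgf8 window included 1 site of high score. HOXA13 had 11 peaks and HOXD13 5, and merging overlapping peaks gave 11 sites, of which 5 carried both factors (45.5%, 21.3 to 72.0%), against 58% of all merged sites. Thus 5 of 11 HOXA13 peaks overlapped HOXD13, against 63.9% of all, and 5 of 5 HOXD13 peaks overlapped HOXA13, against 86.9% of all. The highest-scoring site, chr19:45643698-45645245, had a HOXA13 score of 600.17 (percentile 90.4 of its list) and a HOXD13 score of 449.13 (percentile 84.6). No other site of the window exceeded 141.95 for HOXA13 or 129.70 for HOXD13. At this site H3K27ac was called in both genotypes, with a wild-type score of 148.85 (percentile 31.5) and a double-mutant score of 69.57 (percentile 12.4). The double-mutant peak was 0.839 times as wide as the wild-type peak, where the median over all 24276 H3K27ac peaks with 1 partner in the other genotype was 1.07. With a score of 100 or more required in both lists, or with lists of equal length, the wild-type peak at the site became a call in wild type only. Other sites of both factors with H3K27ac in both genotypes went both ways. The width ratio was 0.647 at chr19:45720932-45722033 and 1.14 at chr19:45857687-45859115.

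The remaining sites of both factors in that window had modest scores. They lay at chr19:45720932-45722033 (HOXA13 141.95, HOXD13 52.05) and chr19:45857687-45859115 (93.21 and 129.70), both on H3K27ac of both genotypes, at chr19:45887479-45888478 (90.59 and 92.22), on H3K27me3 of all 3 lists, and at chr19:45696338-45697372 (59.12 and 100.69), on neither mark in wild type. That last site was the 1 of 11 without either mark in wild type (9.09%, 1.62 to 37.7%), against 55.6% of all merged sites, and it lacked both marks in the double mutant as well, as did 1 further site there (2 of 11, against 60.6%). Inside the wide H3K27me3 domain HOXA13 had 2 peaks, chr19:45809022-45809774 (score 110.59, among the 5 highest HOXA13 sites of the window) and chr19:45813991-45814636 (score 50.81), and HOXD13 none. The fourth HOXA13 score in order was 94.79, at chr19:45623253-45624315. In all 5 of 11 sites overlapped wild-type H3K27me3 (45.5%, 21.3 to 72.0%), against 11.2% of all merged sites, in a window that has more H3K27me3 than autosomes in general.

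The Dlx5/Dlx6 window held 1 very wide H3K27me3 domain that, unlike the one in the Fgf8 window, contained high-scoring H3K27ac. In wild type the domain was 1 peak of 39378 bp, chr6:6794974-6834351, with a score of 3100 and rank 62 of 28875 by width. In the double mutant it was a peak of 37024 bp, chr6:6796910-6833933 (score 3100), preceded by a minor one at chr6:6795063-6795966 (score 59.09). At E10.5 it was formed by 2 peaks, chr6:6796400-6813574 (score 3100) and chr6:6813958-6835226 (score 2863.23). From first start to last end the domain thus measured 39378 bp in wild type, 38871 bp in the double mutant and 38827 bp at E10.5. Double-mutant H3K27me3 covered 96.3% of the wild-type domain, and 40.3% of wide domains were covered at least as much. E10.5 H3K27me3 covered 95.4%, and 19.5% of wide domains were covered at least as much. The E10.5 list held no other peak in the window.

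Within this domain acetylation was called in both genotypes, and over more bases in the double mutant. The wild-type H3K27ac peak chr6:6828985-6832959 was 3975 bp wide (score 2041.69, percentile 79.1), and its double-mutant counterpart chr6:6828022-6833069 was 5048 bp wide (score 2499.77, percentile 89.5). They were the widest H3K27ac peaks of the window in their lists. The wild-type peak chr6:6812866-6815151 was 2286 bp wide (score 772.89, percentile 64.0), and the double-mutant peak chr6:6812590-6815088 was 2499 bp wide (score 1163.58, percentile 77.2). Between them the double mutant had a further peak of low score, chr6:6823938-6825079 (115.41). All 5 peaks lay wholly within H3K27me3 of their own genotype.

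In bases, H3K27ac covered 6261 bp or 15.9% of the domain in wild type and 8689 bp or 22.1% in the double mutant. Of the 1207 wide domains 9.69% and 9.36% had as large a share of H3K27ac. More covered bases in the double mutant was the usual direction among them, since 422 of the 548 wide domains with H3K27ac in either genotype (77.0%) had more bases of it in the double mutant, whose list is longer. The double-mutant peaks were 1.27 and 1.09 times as wide as their wild-type partners, and the median over all partnered H3K27ac peaks was 1.07. Counted over the window, 3 of 12 wild-type H3K27ac peaks overlapped wild-type H3K27me3 (25%, 8.89 to 53.2%), against 15.5% of all. The one outside the domain, chr6:6409388-6410461 (score 124.05), did so by 18 bp only. In the double mutant 3 of 10 overlapped double-mutant H3K27me3 (30%, 10.8 to 60.3%), against 13.2% of all. Bases with both marks made up 29.9% of the wild-type and 47.8% of the double-mutant H3K27ac bases of the window, compared with 9.82% and 8.87% over autosomes. In the Fgf8 window these shares were 3.31% and 6.46%.

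**Figure D3:**
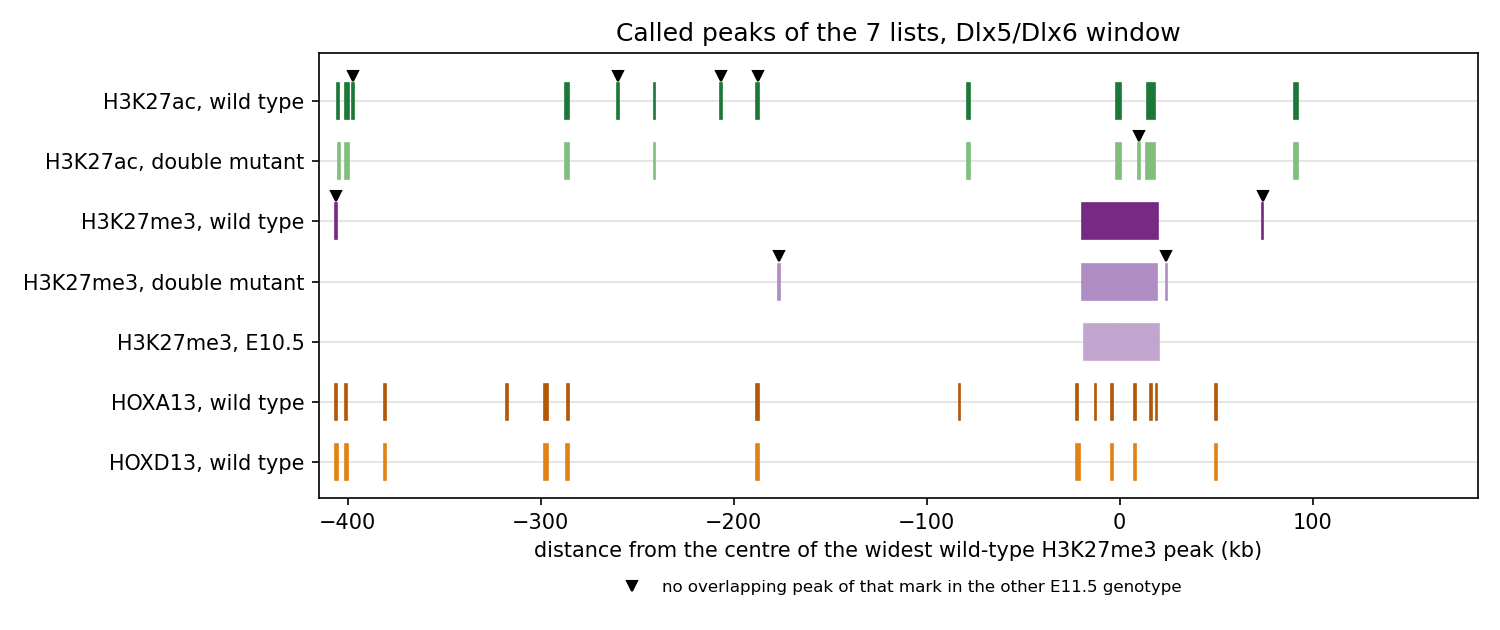
Called peaks of the 7 lists (rows) in the Dlx5/Dlx6 window, drawn to scale by distance in kb from the centre of the 39378 bp wild-type H3K27me3 peak; triangles mark histone peaks of E11.5 without an overlapping peak of that mark in the other genotype. The domain holds 2 H3K27ac peaks in wild type against 3 in the double mutant, and the 4 wild-type-only H3K27ac peaks lie away from it.

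Outside the domain the H3K27me3 of the window was limited to minor peaks that differed between the E11.5 lists. Among the 3 peaks of wild type, 2 were without a double-mutant partner (66.7%, 20.8 to 93.85%, against 30.4% of autosomal peaks), at chr6:6408279-6409405 (score 89.85) and chr6:6888281-6889020 (score 52.22). Among the 4 of the double mutant, 2 lacked a wild-type partner (50%, 15 to 85%, against 15.8%), at chr6:6637433-6638505 (score 103.75) and chr6:6838389-6839216 (score 71.98). None of these 4 overlapped an E10.5 peak, nor did the minor double-mutant peak at chr6:6795063-6795966. In all, 2 of 3 wild-type peaks (66.7%, 20.8 to 93.85%) and 3 of 4 double-mutant peaks (75%, 30.1 to 95.4%) had no E10.5 peak. The shares of autosomal peaks were 50.2% and 46.5%.

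H3K27ac outside the domain included the highest-scoring peak of the window, in both genotypes, and 4 peaks called in wild type only. The peak of highest score was chr6:6527138-6529524, with 3100 in the wild-type list and 2926.39 in the double-mutant list. Of 12 wild-type peaks 4 had no double-mutant peak (33.3%, 13.8 to 60.9%), against 15.1% of the whole list. Among the 10 of the double mutant, 1 lacked a wild-type partner, the minor peak inside the domain (10%, 1.79 to 40.4%), against 30.1% of the whole list.

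Of these 4 wild-type peaks 3 had low scores and no HOX13 peak. They lay at chr6:6417178-6418191 (99.04), chr6:6554240-6555313 (101.09) and chr6:6607797-6608755 (83.51), and wild-type peaks without a partner had a median score of 88.8 in the whole list. The other, chr6:6626131-6627944, had a score of 328.74 (percentile 49.2) and was 1814 bp wide. The nearest double-mutant H3K27ac peak was 52230 bp away. No H3K27me3 peak of any list overlapped it. It coincided with the HOXA13 peak of highest score in either window, chr6:6626063-6627709 (681.96, percentile 91.9), and with a HOXD13 peak of score 306.19 (percentile 76.1). Wild-type H3K27ac peaks scoring at least 328.74 numbered 10 in both windows together. Of these, 1 lacked a double-mutant peak (10%), against 1.67% of 16214 in the whole list. Of those also on sites of both factors it was 1 of 4 (25%), against 4.46% of 4575. That cut is this peak's own score, taken after it was seen, so at least 1 is counted by construction. No interval is given, and these shares only describe where the peak stands. The call was the same with a score of 100 or more, equal list lengths, joined peaks, a larger overlap or a 1000 bp distance. None of these settings could have changed it. The peak stayed in the wild-type list each time, and the nearest double-mutant H3K27ac peak was 52230 bp away. Sites of both factors carried 4 wild-type H3K27ac peaks of the window. Among them only the peak at 6626131 lacked a double-mutant peak (25%, 4.56 to 69.9%), against 23.9% of all such peaks.

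**Figure D4:**
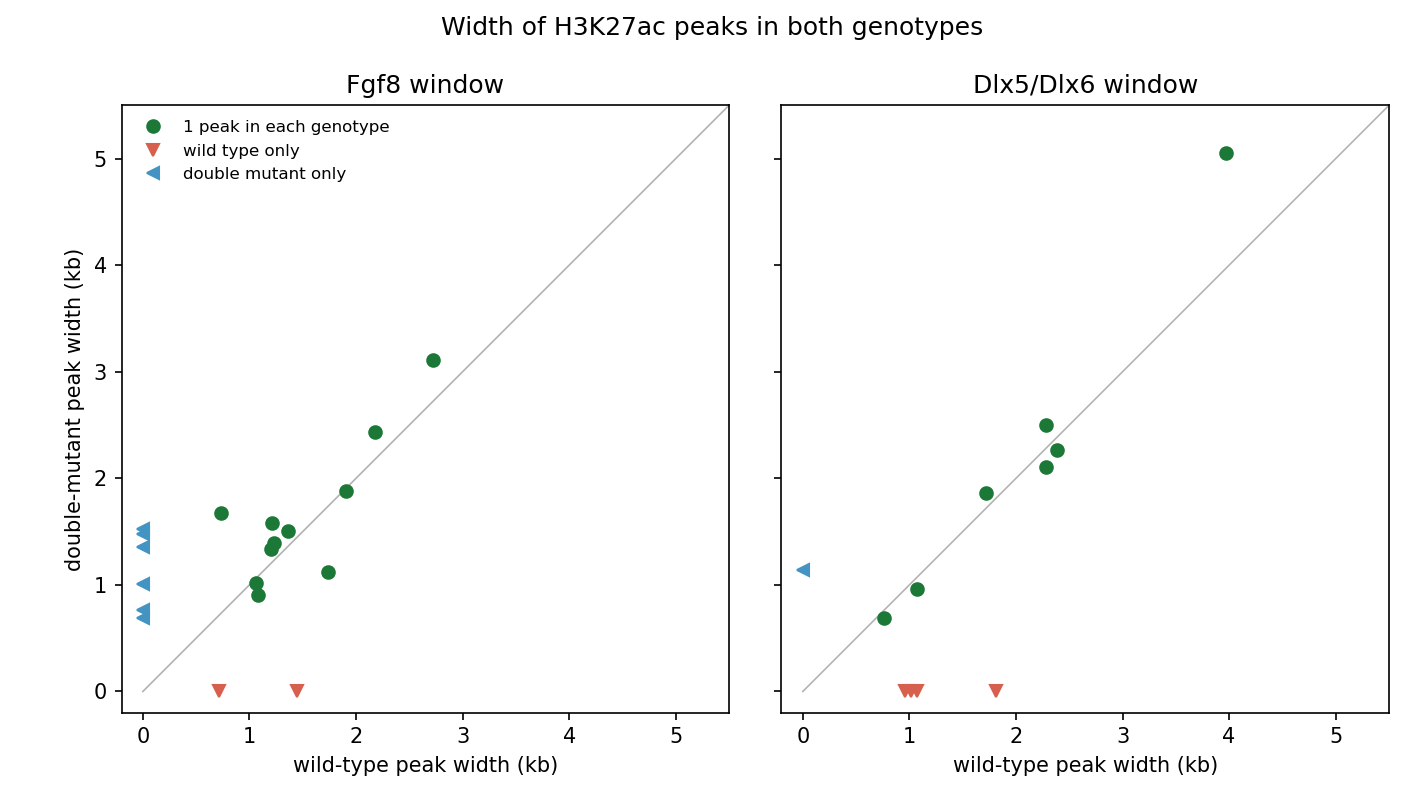
Each circle is an H3K27ac peak with 1 partner in the other genotype, placed by its width in kb in wild type (x axis) and the double mutant (y axis); triangles on the axes are peaks called in 1 genotype only, and the grey line marks equal widths. Width ratios run from 0.647 to 2.275 in the Fgf8 window and from 0.899 to 1.27 in the other, and the widest peak, inside the Dlx5/Dlx6 H3K27me3 domain, measures 3975 bp in wild type and 5048 bp in the double mutant.

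HOX13 sites were spread along the Dlx5/Dlx6 window, and the 5 with the highest HOXA13 scores lay outside the H3K27me3 domain. HOXA13 had 15 peaks and HOXD13 10, in 15 merged sites, of which 10 carried both factors (66.7%, 41.7 to 84.8%), against 58% of all sites. By HOXA13 score the 5 leading sites were chr6:6626063-6627709 (681.96), chr6:6516299-6518492 (492.52), chr6:6791807-6794117 (383.96), chr6:6413252-6414712 (268.82) and chr6:6863899-6865179 (262.60). In that order their HOXD13 scores were 306.19, 484.93, 517.39, 547.29 and 225.04. The fifth-highest HOXD13 score, 248.93, was at chr6:6408250-6409576.

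Of these 5 sites 3 had neither mark in any list. These were the sites at 6516299, at 6791807 and at 6863899. Sites without either mark were common. In this window 6 of 15 had neither mark in wild type (40%, 19.8 to 64.25%), against 55.6% of all merged sites. In the double mutant 7 of 15 had neither (46.7%, 24.8 to 69.9%), against 60.6%. The site at 6791807, which held the widest HOXD13 peak of the window (2311 bp), ended 856 bp before the wild-type H3K27me3 domain. The site at 6413252 lay on H3K27ac in both genotypes. Its scores were 691.24 in the wild-type list (percentile 62.1) and 240.96 in the double-mutant list (percentile 49.6). The double-mutant peak was 0.922 times as wide as the wild-type peak. The 7 partnered H3K27ac peaks of the window had width ratios from 0.899 to 1.27 with a median of 0.950, and the 11 of the Fgf8 window from 0.647 to 2.275 with a median of 1.11.

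Inside the domain 5 sites were called, with HOXA13 scores below the median of the HOXA13 list (126). HOXA13 scores there were 53.67, 94.19, 60.97, 71.94 and 56.78, and HOXD13 was called at 2 of the 5 with scores of 146.30 (percentile 53.6) and 61.49 (percentile 12.2). One of these HOXA13 peaks, chr6:6830502-6831344 (71.94), lay within the wide H3K27ac peak of both genotypes. The wild-type H3K27ac peak at 6812866 overlapped no factor peak, and the nearest was 1599 bp away. Counting the site at 6408250, 6 of 15 sites overlapped wild-type H3K27me3 (40%, 19.8 to 64.25%), against 11.2% of all sites. Both marks of wild type overlapped 2 of 15 sites, against 4.34% of all. The HOXA13 scores of the 6 sites on H3K27me3 ran from 53.67 to 108.40 with a median of 66.5, and those of the 9 sites outside ran from 86.76 to 681.96 with a median of 263. Over all merged sites the medians had the opposite order, 149.5 inside and 124.5 outside wild-type H3K27me3. In the Fgf8 window they were 90.6 for 5 sites inside and 93.1 for 6 sites outside.

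**Figure D5:**
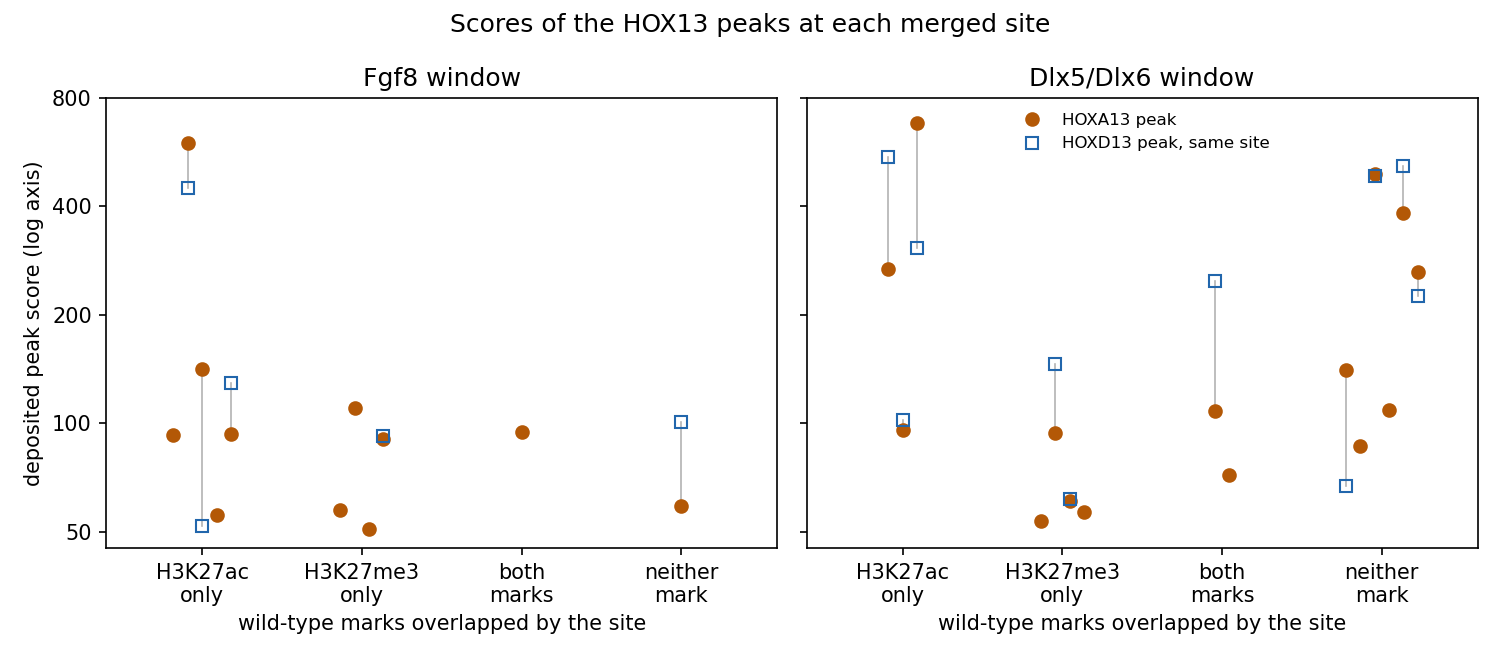
Deposited scores (log axis) of the HOXA13 peak (filled circle) and, where called, the HOXD13 peak (open square) at each merged site, grouped by the wild-type marks the site overlaps; grey lines join both factors of 1 site. In both windows the sites on H3K27me3 only have HOXA13 scores from 50.81 to 110.59, while the 6 sites with a HOXA13 score of 262.60 or more lie on H3K27ac only or on neither mark.

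Seen from the binding sites, most calls were shared by the genotypes. In the Fgf8 window 6 of 11 sites overlapped H3K27ac with wild-type peaks (54.5%) and 5 with double-mutant peaks (45.5%), against 37.6% and 34.3% of all sites. In the Dlx5/Dlx6 window the counts were 5 of 15 (33.3%) and 4 of 15 (26.7%). The 2 sites without double-mutant H3K27ac were chr19:45623253-45624315, a HOXA13 site of score 94.79, and chr6:6626063-6627709. H3K27me3 overlapped 5 and then 4 of 11 sites in the Fgf8 window, and 6 and then 5 of 15 in the Dlx5/Dlx6 window, first with wild-type and then with double-mutant peaks. Over all sites these shares were 11.2% and 8.57%. The 2 sites without double-mutant H3K27me3 were the same HOXA13 site on chromosome 19 and chr6:6408250-6409576. No site in either window had H3K27ac or H3K27me3 in the double mutant without having it in wild type. The shares of all sites that differ between genotypes were not computed, so these site counts cannot be read as a direction of change. Of the 9 double-mutant H3K27ac peaks on HOX13 peaks in both windows, 0 lacked a wild-type peak (0 to 29.9%), against 13.3% of all. Of the 12 wild-type H3K27ac peaks on HOX13 peaks there, 2 lacked a double-mutant peak (16.7%, 4.70 to 44.8%), against 21.3%.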

How the data were processed

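The submitters' processing notes name Bowtie 0.12.7, MACS 1.4 and the build mm9. The deposited lists give chromosome, start, end, name and score per peak. The score is the authors' deposited value. There is 1 list per library, named as called against an input, and pooling of embryos is not given in the sources used here. Signal from the 5 inputs was not analysed here. None of them is labelled for H3K27me3 at E11.5, while an input is labelled for H3K27me3 at E10.5. Input may therefore be a further difference in comparisons with E10.5. Every list had 6 to 16 peaks past the end of GRCm38 chromosome 1 (195471971 bp), so GRCm38 gene positions and sequences were not set against peaks. RefSeq gene order on GRCm38 was used for the names of neighbours. Fgf8, Dlx5 and Dlx6 had 0 entries in the promoter table at hand.

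Positions are printed counting from 1. Overlap means at least 1 bp. HOXA13 and HOXD13 peaks that overlap were merged into sites. Covered length counts each base once, clipped to the window, and autosome shares use the length up to the last peak of each autosome (2471 Mb in all). Wide domains are wild-type autosomal H3K27me3 peaks of at least 10 kb. Ranges printed after a share are Wilson 95% intervals for the number of peaks counted. They hold no variation among embryos and treat neighbouring peaks as independent, so they serve as no test against the whole list. The overlap code was tested on simulated data. Python 3.11.15, numpy 2.4.6 and statsmodels 0.14.6 were used.

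The named peaks are, for each window, those of highest score and largest width in each list, the E11.5 histone peaks called in 1 genotype only, any E10.5 peak without a wild-type E11.5 peak, regions with both marks, and the 5 HOX13 sites with the highest score of each factor. The windows, lists and rules were chosen with earlier results of these data known. The alternatives were a score of 100 or more, equal list lengths, joining of peaks closer than 1000 bp, membership by midpoint and overlap of at least 50% of either peak. After seeing the data, a further alternative took peaks up to 1000 bp apart as overlapping.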

Additional observations from a re-analysis of the deposited data

How the results depend on the processing

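For each window 8 values were recomputed: H3K27ac peaks without a partner, counted for each genotype, covered lengths of H3K27ac and H3K27me3, and merged HOX13 sites. Of 64 recomputed values 63 stayed within 1.5 times the reported one, and all 30 covered lengths did. The exception was the number of HOX13 sites in the Fgf8 window, which was 5 in place of 11 with a score of 100 or more in both factor lists. HOX13 sites of the Dlx5/Dlx6 window then numbered 10 in place of 15, exactly at the limit of 1.5 times. With equal list lengths, wild-type-only calls of both windows and double-mutant-only calls of the Fgf8 window also lay at that limit. Counts can stay while the peaks behind them differ. With a score of 100 or more, the Fgf8 window still had 2 H3K27ac peaks called in wild type only, but 1 of them was the peak at the strongest HOX13 site. Over both windows 5 of 21 wild-type peaks were then called in wild type only, against 13.4% of that list. With equal list lengths, wild-type-only calls numbered 3 and 6 in the Fgf8 and Dlx5/Dlx6 windows and double-mutant-only calls 4 and 1. Over both windows these were 9 of 27 wild-type peaks, against 19.3% of that list, and 5 of 22 double-mutant peaks, against 21.4%. Depth is unknown, which limits calls of low score. No paired analysis was possible because each group holds 1 library.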

Other observations

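Partnered H3K27me3 peaks of the Fgf8 window differed in how much narrower they were in the double mutant. The peak at chr19:45877581-45879706 was 2126 bp wide with a score of 458.12 in wild type, and its double-mutant partner was 810 bp wide with a score of 51.86. The peak at chr19:45768924-45771587 measured 2664 bp (score 442.25) and 1307 bp (score 126.61). The widths of the 3 partnered blocks with a score of 3100 were 0.975, 0.969 and 0.986 times the wild-type ones. The median over all 10396 partnered autosomal H3K27me3 peaks was 0.852, and over the 7 partnered peaks of the window 0.893. The peak at chr19:45768924-45771587 overlapped no E10.5 peak, and that at chr19:45877581-45879706 overlapped an E10.5 peak with a score of 97.08. The share of library depth in these widths was not tested.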
